A study of Drosophila melanogaster with 3 samples.

Results

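Clockwork orange (cwo), a transcriptional repressor of the bHLH-Orange family known for its part in the circadian loops of the fly, was mapped on chromatin at 10 genes of the ecdysone pathway. The genes are EcR and usp, which encode the hormone receptor, and Eip74EF, Eip75B, Eip78C, E23, Hr3, Hr4, ftz-f1 and br, which respond to the hormone. They were chosen by symbol as members of the pathway, not by a threshold on a measured value. Earlier results of these data were known when the genes were chosen. All 10 were found among 13945 protein-coding genes of the annotation. The material was a single group, cwo-GFP embryos of Drosophila melanogaster, from a transgenic line stably expressing cwo with GFP at its C-terminus. Embryos of both sexes were pooled whole at 6 to 24 h, chromatin was precipitated with an antibody against GFP, and there were 3 biological replicates. No second condition was analysed here. The labels do not say which promoter drives the fusion or whether the endogenous gene was still present, so levels of the fusion relative to native cwo are unknown. The optimal list, the regions that passed the irreproducible discovery rate (IDR) procedure, held 7366 regions on the build dm6, and regions were ranked by the deposited signal, with rank 1 the strongest. A region's summit is the position of its highest signal. Each gene's territory was its body with 5000 bp either side, and 96 of the 7366 optimal summits lay in the 10 territories. Whole embryos mix all tissues, so binding in fewer cells and less binding per cell cannot be told apart.

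Ecdysone, in its active form 20-hydroxyecdysone, is the steroid hormone that times the stages of insect development. It binds the heterodimer of EcR and ultraspiracle (usp), and the loaded receptor switches on a first tier of genes that encode transcription factors, among them Eip74EF, Eip75B and br. Those factors and the receptor then act on a second tier of nuclear receptor genes, Hr3, Hr4, Eip78C and ftz-f1, whose staggered expression gives each hormone pulse its sequence of responses. In the embryo a pulse of the hormone falls in mid-embryogenesis, within the ages sampled here. Eip75B is a haem-binding nuclear receptor related to the mammalian Rev-erb receptors, which are themselves parts of the mammalian clock, and Hr3 is related to the ROR receptors that share binding sites with Rev-erb. The proteins of the bHLH-Orange family bind E-boxes such as CACGTG and the related class C site CACGCG.

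The sequences below are those under the summits of the 10 genes that rank in the first 400 and hold an E-box, a class C site or the nuclear receptor half-site AGGTCA, and those of 3 weaker Eip75B summits with an E-box. The E-box summit of Eip75B at rank 7256 is the weaker of a close pair and is not shown. They were read from the dm6 assembly on its plus strand, so a site on the minus strand appears as its reverse complement. Capitals mark the E-box CACGTG, the class C site CACGCG and the half-site AGGTCA on either strand. For the first 5, each sequence runs 60 bases either side of the summit. The E23 summit of rank 4 lies just upstream of the start of the gene, and its sequence, 2L:3354945-3355065, holds an E-box.
E23 rank 4: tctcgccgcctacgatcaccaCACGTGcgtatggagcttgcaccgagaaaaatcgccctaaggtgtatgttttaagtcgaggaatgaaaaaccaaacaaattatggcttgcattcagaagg
The strongest Eip75B summit, of rank 14, lies beyond the 3′ end of the gene at 3L:17949201-17949321 and holds class C sites on both strands that overlap each other.
Eip75B rank 14: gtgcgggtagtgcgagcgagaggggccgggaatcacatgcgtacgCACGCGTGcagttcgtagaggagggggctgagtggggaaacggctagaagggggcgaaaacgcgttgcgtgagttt
The ftz-f1 summit of rank 30 lies in an intron at 3L:18759304-18759424 and holds both an E-box and a half-site.
ftz-f1 rank 30: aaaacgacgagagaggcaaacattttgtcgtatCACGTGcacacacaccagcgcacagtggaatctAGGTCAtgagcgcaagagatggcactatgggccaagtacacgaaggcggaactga
The Eip74EF summit of rank 290 lies in an intron at 3L:17612369-17612489 and holds an E-box.
Eip74EF rank 290: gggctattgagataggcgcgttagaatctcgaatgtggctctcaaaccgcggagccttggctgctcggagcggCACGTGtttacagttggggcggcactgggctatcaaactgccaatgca
The Eip75B summit of rank 319, at 3L:17950492-17950612, lies nearest to the 3′ end of the gene and holds a half-site.
Eip75B rank 319: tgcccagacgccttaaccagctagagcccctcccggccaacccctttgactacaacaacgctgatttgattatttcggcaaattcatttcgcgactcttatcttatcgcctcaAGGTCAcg
The 3 shorter sequences show E-boxes inside Eip75B, in introns at 3L:17994856-17994885 and 3L:18014496-18014525 and upstream of the transcript RC at 3L:18000238-18000267.
Eip75B rank 923: gctaatcggcgaCACGTGtaatgcctgata
Eip75B rank 1348: atgaacttgaaaCACGTGtaagaggtatga
Eip75B rank 2666: ggatcgttgagcCACGTGtggctgaattag

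All 10 genes had an optimal summit in their territory, which held for 54.3% of protein-coding genes. Most of the 10 genes are long, and length raises the chance that a summit falls in a territory: among genes with a territory of at least 40 kb, 76.8% had an optimal summit. Among the ecdysone genes, 8 belong to that class, and their median was 8.5 summits, against 2 for the 663 genes of the class. The 10 territories covered 658.8 kb, 0.492% of the arms, and held 1.30% of the optimal summits. This is 1.46 summits per 10 kb, against 0.550 over all arms, and 1.16 per 10 kb when Eip75B was left out. Counted over the gene bodies alone, all 10 genes again had a summit, against 2366 of the 13945 protein-coding genes. That count was not matched for length, and no share for long genes was computed at this setting. No enrichment test was made, because the genes were chosen with results of these lists known.

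**Figure D1:**
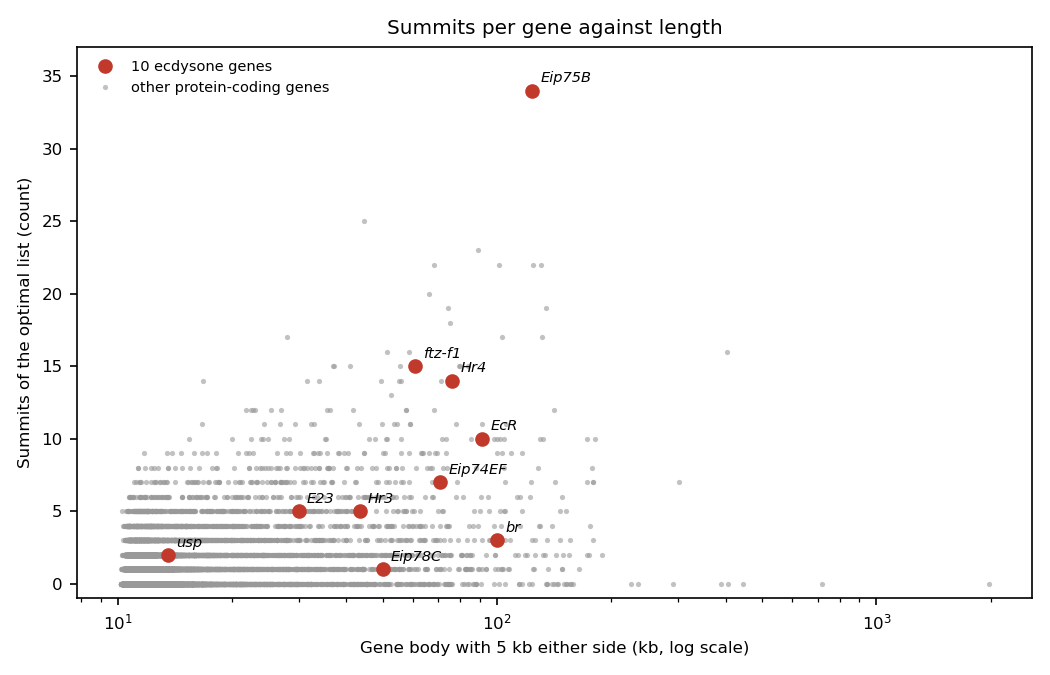
Number of optimal summits (count) against the length of the gene body with 5 kb either side (kb, log scale), each point a protein-coding gene. Red points are the 10 ecdysone genes, and grey points are the others. Eip75B, with 34 summits, lies above every other gene, while usp, br and Eip78C, with 2, 3 and 1 summits, lie within the mass of other genes.

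The strongest summits spanned the whole optimal list. In the optimal list, the best rank was 4 for E23, 14 for Eip75B, 30 for ftz-f1, 160 for Hr3, 290 for Eip74EF, 493 for Hr4, 1269 for EcR, 2050 for br, 4025 for usp and 6788 for Eip78C. The order of the 10 genes by their best rank was the same in each of the 3 replicate lists, although the optimal list was made from these replicates and is not independent of them. Of the 10 genes, 5 had a summit ranked 300 or better, which held for 4.97% of protein-coding genes, a limit chosen after the ranks were seen. Among genes with a territory of at least 40 kb, it was 4 of the 8 ecdysone genes, against 9.05% of the 663. The median best rank was 391.5, against 2172 over protein-coding genes with a summit and 1922 over those with a territory of at least 40 kb. A gene with more summits has more chances of a high best rank, and these comparisons were not matched for the number of summits. Summit by summit there was no excess at the top: 12.5% of the 96 ranked in the first 1000, which hold 13.6% of the list. The ranges of the best rank over the 3 replicates did not overlap between any neighbours in this order. How often this holds for other genes was not computed. A gene's best rank could come from different summits in different replicates, as it did at EcR and usp.

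**Figure D2:**
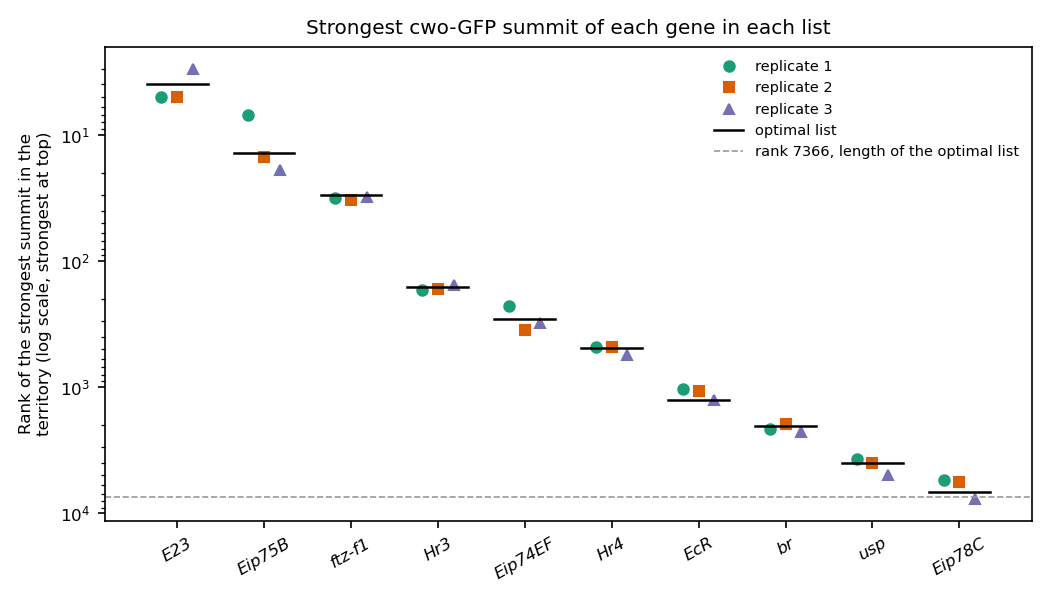
Rank of the strongest summit in each gene's territory (log scale, strongest at the top) in the optimal list (black bars) and in replicates 1, 2 and 3 (circles, squares and triangles). The dashed line is rank 7366, the length of the optimal list, and the Eip78C summit of replicate 3, at rank 7750, lies below it.

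The hormone receptor itself had moderate and weak summits. EcR (FBgn0000546; 2R:6087873-6169087, minus strand) had 10 optimal summits, all of them in introns, and the replicates had 8, 10 and 10 summits among their strongest 7366 regions. Its strongest, at 2R:6144875, ranked 1269 in the optimal list and 1045, 1542 and 1265 in the replicates (mean 1284 ± 249, SD, n = 3). The second, at 2R:6141718, ranked 1299, with ranks of 1520, 1084 and 1387 in the replicates, and lay within 1000 bp of the tRNA genes tRNA:Arg-ACG-1-1 and tRNA:Lys-CTT-1-1. The ranks of these neighbours overlapped over the replicates, so neither can be called the stronger. Both lay closer to the start of CG14589, at 7572 and 4415 bp, than to any EcR start, at 12254 and 9796 bp. The strongest summit closest to EcR among protein-coding genes was at 2R:6112924, at rank 2061. EcR has 3 promoters in the annotation. Only the one shared by transcripts RB, RC and RG had an optimal summit within 1000 bp, 152 bp upstream, at rank 6487, with replicate ranks of 9330, 6494 and 5733. Replicate 1 thus placed it outside its strongest 7366 regions. The promoter of RA had a summit outside the optimal list, at rank 22651 of the 30000 relaxed regions called on pooled reads and at 28173, 22528 and 17154 in the replicates. That of RD and RE had one at pooled rank 12683, with 7723, 19521 and 12859 in the replicates.

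The partner gene usp (FBgn0003964; X:2038798-2042311, minus strand), which encodes the RXR homologue, is short and had 2 optimal summits. The stronger, at X:2041517, ranked 4025, with 4065, 4008 and 5009 in the replicates (mean 4361 ± 562, SD, n = 3). It lay 205 bp upstream of transcript RA and 794 bp downstream of the start of RB, in a 5′ UTR. The same position is within 1000 bp of the starts of Actn and CG4313, so the lists do not assign it to usp alone. Neither usp summit held any of the short sequences searched.

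Of the first-tier genes, Eip74EF (FBgn0000567; 3L:17558672-17619325, minus strand), which encodes an ETS-domain transcription factor, had 7 optimal summits, with 6, 9 and 7 in the replicates. The strongest, at 3L:17612429, ranked 290 with replicate ranks of 226, 355 and 311 (mean 297 ± 65.6, SD, n = 3). It lay in an intron, 6896 bp downstream of the start shared by RA, RC and RE, and its E-box was centred 15.5 bp from the summit. The other 4 optimal summits near this start lay 2240 to 7938 bp downstream of it, at ranks 2323, 2551, 1680 and 7260. The summits of rank 2699 and 5111 were closer to the start of CycT. That of rank 5111 lay beyond the 3′ end of Eip74EF, 160 bp from the CycT start. No promoter of Eip74EF had an optimal summit within 1000 bp. Its promoters had summits in the relaxed lists, at pooled rank 15412 for the start of RA, RC and RE, and at 20692 for those of RB and RD.

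Eip75B (FBgn0000568; 3L:17950953-18064696, minus strand) held the most summits of all. Its 34 optimal summits, in 27 loci once overlapping regions were merged, were not exceeded by any protein-coding gene. The replicates had 29, 36 and 30 summits there (mean 31.7 ± 3.8, SD, n = 3). Requiring a summit to be held by both remaining replicates gave 27 without replicate 1, 21 without replicate 2 and 26 without replicate 3. Of the 81 summits of the relaxed pooled list in this territory, 42.0% were in the optimal list, against 24.6% over the genome. Over the 10 territories this share was 33.2%, and by gene it ran from 7.69% at Eip78C to 50% at Hr3. E23, with 45.5%, was also above Eip75B. All 34 lay closer to a start of Eip75B than to that of any other protein-coding gene. Other long genes came next in number: tara had 25, sbb 23, and Glut4EF, CG46467 and shn 22 each, Glut4EF and CG46467 being overlapping genes. These 5 were the closest by count, with ties decided by the rank of the strongest summit. Per length the order differed: Eip75B had 2.75 summits per 10 kb, below tara with 5.60 and shn with 3.22, and above sbb with 2.58.

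The strongest Eip75B summits were not at a promoter. Among the 34, 6 optimal summits lay within 5000 bp beyond the 3′ end of the gene, at ranks 319, 632, 14, 2574, 4950 and 7071 in order of distance from it. The summit of rank 14, at 3L:17949261, was 1692 bp past the 3′ end and 12553 bp downstream of the nearest Eip75B start, that of transcript RD. It ranked 7, 15 and 19 in the replicates (mean 13.7 ± 6.1, SD, n = 3). The summit of rank 632 was the weaker of a close pair with it, and in each replicate both fell in a single region. The summit of rank 319 was 401 bp past the 3′ end and ranked 432, 322 and 268 in the replicates. A long non-coding RNA gene, lncRNA:CR45393, starts within 1000 bp of the summits of rank 2574 and 4950 but not of the others. The replicates had 5, 6 and 5 summits in this stretch.

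The 7 alternative promoters of Eip75B differed. Transcripts of this gene share the part that encodes the ligand-binding domain and differ at their 5′ ends. From 5′ to 3′, the starts are those of RF, RE, RB, RG, RC, RA and RD. The first 4 had no optimal summit within 1000 bp and the last 3 had one each or more, in the optimal list and in every replicate. At RC the strongest summit was 47 bp downstream of the start, at rank 691, and ranked 832, 562 and 632 in the replicates (mean 675 ± 140, SD, n = 3). A second, 420 bp upstream of RC, ranked 2666 and held the E-box shown above. At RA the strongest was 117 bp downstream of the start, at rank 1432, with 1586, 1435 and 1498 in the replicates (mean 1506 ± 75.8, SD, n = 3). At RD it was 90 bp downstream, at rank 5822, with 3503, 5467 and 6041 (mean 5004 ± 1331, SD, n = 3). The replicate ranks at RC, RA and RD did not overlap, which puts RC first and RD last. Weaker summits lay at some of the other starts in the relaxed lists. RG had one 3 bp downstream of its start at pooled rank 12219, with regions at 13553, 14579 and 11291 in the replicates, and RE had one at pooled rank 19871. RF had none in any list, and RB had a region in replicate 1 alone, at rank 26506. When the limit was widened to 2000 bp, 5 of the 7 promoters had an optimal summit.

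Between the promoters the summits were uneven. The stretch of 33.6 kb from RB to RG held a single optimal summit, at rank 1568, with 1, 1 and 2 in the replicates. The next stretch, 26.2 kb from RG to RC, held 13, with 13, 14 and 12 in the replicates, and 3 of the 4 Eip75B summits with an E-box. The 28.4 kb from RC to RA held 7, with 5, 8 and 5 in the replicates. The 10.9 kb from RD to the 3′ end held 5, with 3, 5 and 3. No optimal summit lay in the 5 kb upstream of RF, or in any replicate's strongest 7366 regions there. The counts of the RB to RG and RG to RC stretches did not overlap over the replicates.

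**Figure D3:**
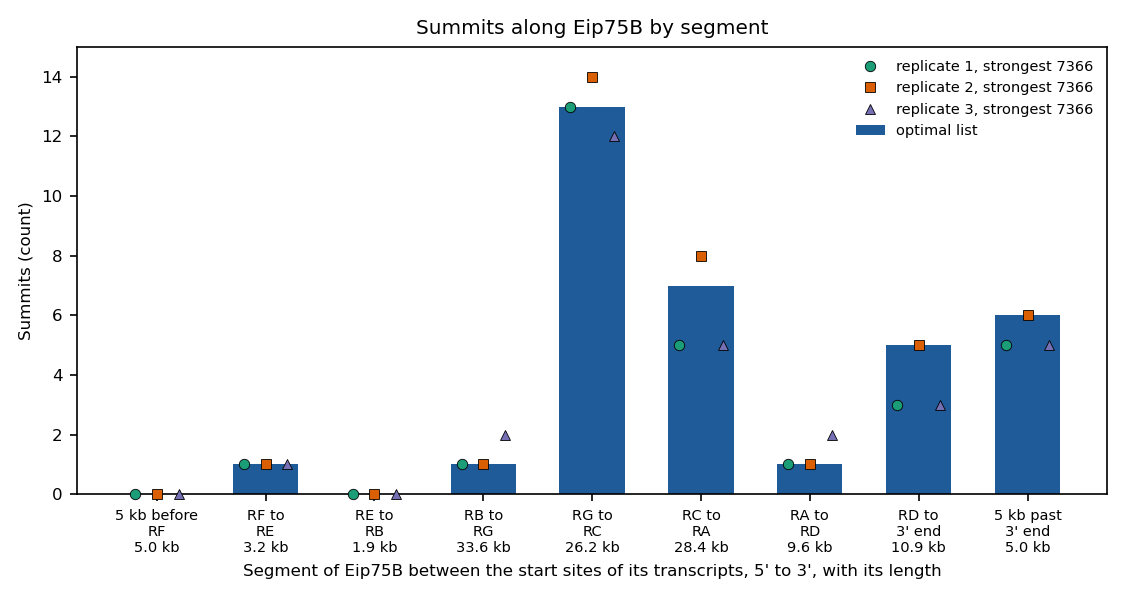
Number of summits (count) in each segment of Eip75B between the start sites of its transcripts, 5′ to 3′, with the 5 kb before RF and the 5 kb past the 3′ end. Bars are the optimal list, and circles, squares and triangles are the strongest 7366 regions of replicates 1, 2 and 3. The RG to RC segment holds 13 optimal summits and the longer RB to RG segment before it holds 1.

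The third first-tier gene, br (FBgn0283451; X:1575132-1664869, plus strand), which encodes the BTB zinc finger proteins of the Broad-Complex, stood at the other end. Its territory of 99.7 kb held 3 optimal summits and the replicates had 2 each. None of the 3 was closest to br among protein-coding genes. The strongest, at X:1618804, ranked 2050, with 2167, 1967 and 2279 in the replicates (mean 2138 ± 158, SD, n = 3), and lay in a br intron within 1000 bp of the start of Mur2B. The third, beyond the 3′ end at X:1669443, lay 127 bp from the start of hfw. At none of the 7 br promoters was there a summit within 1000 bp in the optimal or the relaxed pooled list, and in the replicate lists only replicate 2 had any, at ranks 27200 and 28295.

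Among the later nuclear receptor genes, Hr3 (FBgn0000448; 2R:10203995-10237348, minus strand) had 5 optimal summits, with 5, 5 and 4 in the replicates, all in introns. The strongest, at 2R:10220104, ranked 160, with 170, 167 and 155 in the replicates (mean 164 ± 7.94, SD, n = 3). It lay 7853 bp downstream of the start of RA, RF and RH, inside the genes CG12912 and CG46321 as well, and held no E-box. The promoter of RA, RF and RH had a summit 193 bp upstream, at rank 5221, with 5803, 4050 and 7013 in the replicates. It is also within 1000 bp of the start of CG46321. The other 2 Hr3 promoters had no summit within 1000 bp in the optimal or the relaxed pooled list, and replicate 2 alone had one, at rank 23262.

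Hr4 (FBgn0264562; X:1941940-2007956, plus strand), a nuclear receptor related to mammalian GCNF, had 14 optimal summits, and the replicates had 15, 15 and 14. Of the 14, 13 were held by all 3 replicates. The strongest, in an intron at X:1951909 and 9969 bp downstream of the first promoter, ranked 493, with 484, 478 and 559 in the replicates (mean 507 ± 45.1, SD, n = 3). It held none of the short sequences searched, and no Hr4 summit held an E-box. Both Hr4 promoters lacked an optimal summit within 1000 bp, with relaxed summits at pooled ranks 11802 and 13671. The 5 summits outside the gene lay within 1000 bp of the starts of CG3587, CG3857, PIG-K or east.

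The gene ftz-f1 (FBgn0001078; 3L:18750607-18801309, minus strand) encodes an orphan nuclear receptor whose beta form is expressed as ecdysone declines. It had 15 optimal summits, with 13, 11 and 15 in the replicates (mean 13.0 ± 2.0, SD, n = 3), and 14 of the 15 were closest to ftz-f1. The strongest, at 3L:18759364, ranked 30, with 32, 33 and 31 in the replicates (mean 32.0 ± 1.0, SD, n = 3). It lay in an intron 5592 bp downstream of the start of RA, and its E-box was centred 24.5 bp from the summit. The promoter of RB had a summit 184 bp upstream at rank 1816, with 2050, 1795 and 1772 in the replicates, and the start of lncRNA:CR45939 also lay within 1000 bp of it. The summit of rank 7205, 85 bp upstream of RC and RD and 873 bp upstream of RA, was weaker, with 7001, 7068 and 8676 in the replicates.

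Eip78C (FBgn0004865; 3L:21226609-21266503, plus strand), a nuclear receptor related to Eip75B, had the lowest best rank of the 10. Its only optimal summit, at 3L:21261119, ranked 6788, with 5440, 5647 and 9830 in the replicates, and lay closer to the start of CG43218. Replicate 3 had no summit among its strongest 7366 regions in the territory, while replicates 1 and 2 had 2 and 3. None of the Eip78C promoters had a summit within 1000 bp in the optimal or the relaxed pooled list. In the replicate lists, the promoter of RB had regions at ranks 20883, 6458 and 10817, so replicate 2 alone placed a promoter summit of Eip78C among its strongest 7366.

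E23 (FBgn0020445; 2L:3334875-3354829, minus strand) encodes an ABC transporter that, when expressed in flies, reduces ecdysone responses. Its single promoter, shared by RC, RD and RE, had one of the strongest summits of the whole list, at 2L:3355005 and 176 bp upstream of the start. It ranked 4, with 5, 5 and 3 in the replicates (mean 4.33 ± 1.15, SD, n = 3), and its E-box was centred 36.5 bp from the summit. The other 4 E23 summits ranked 3106, 3254, 3539 and 5193, and every replicate had 5 summits in the territory. Those of rank 3106 and 5193 lay upstream of the gene and were closer to the start of CG8838. The summit of rank 5193 was the weaker of this close pair.

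**Figure D4:**
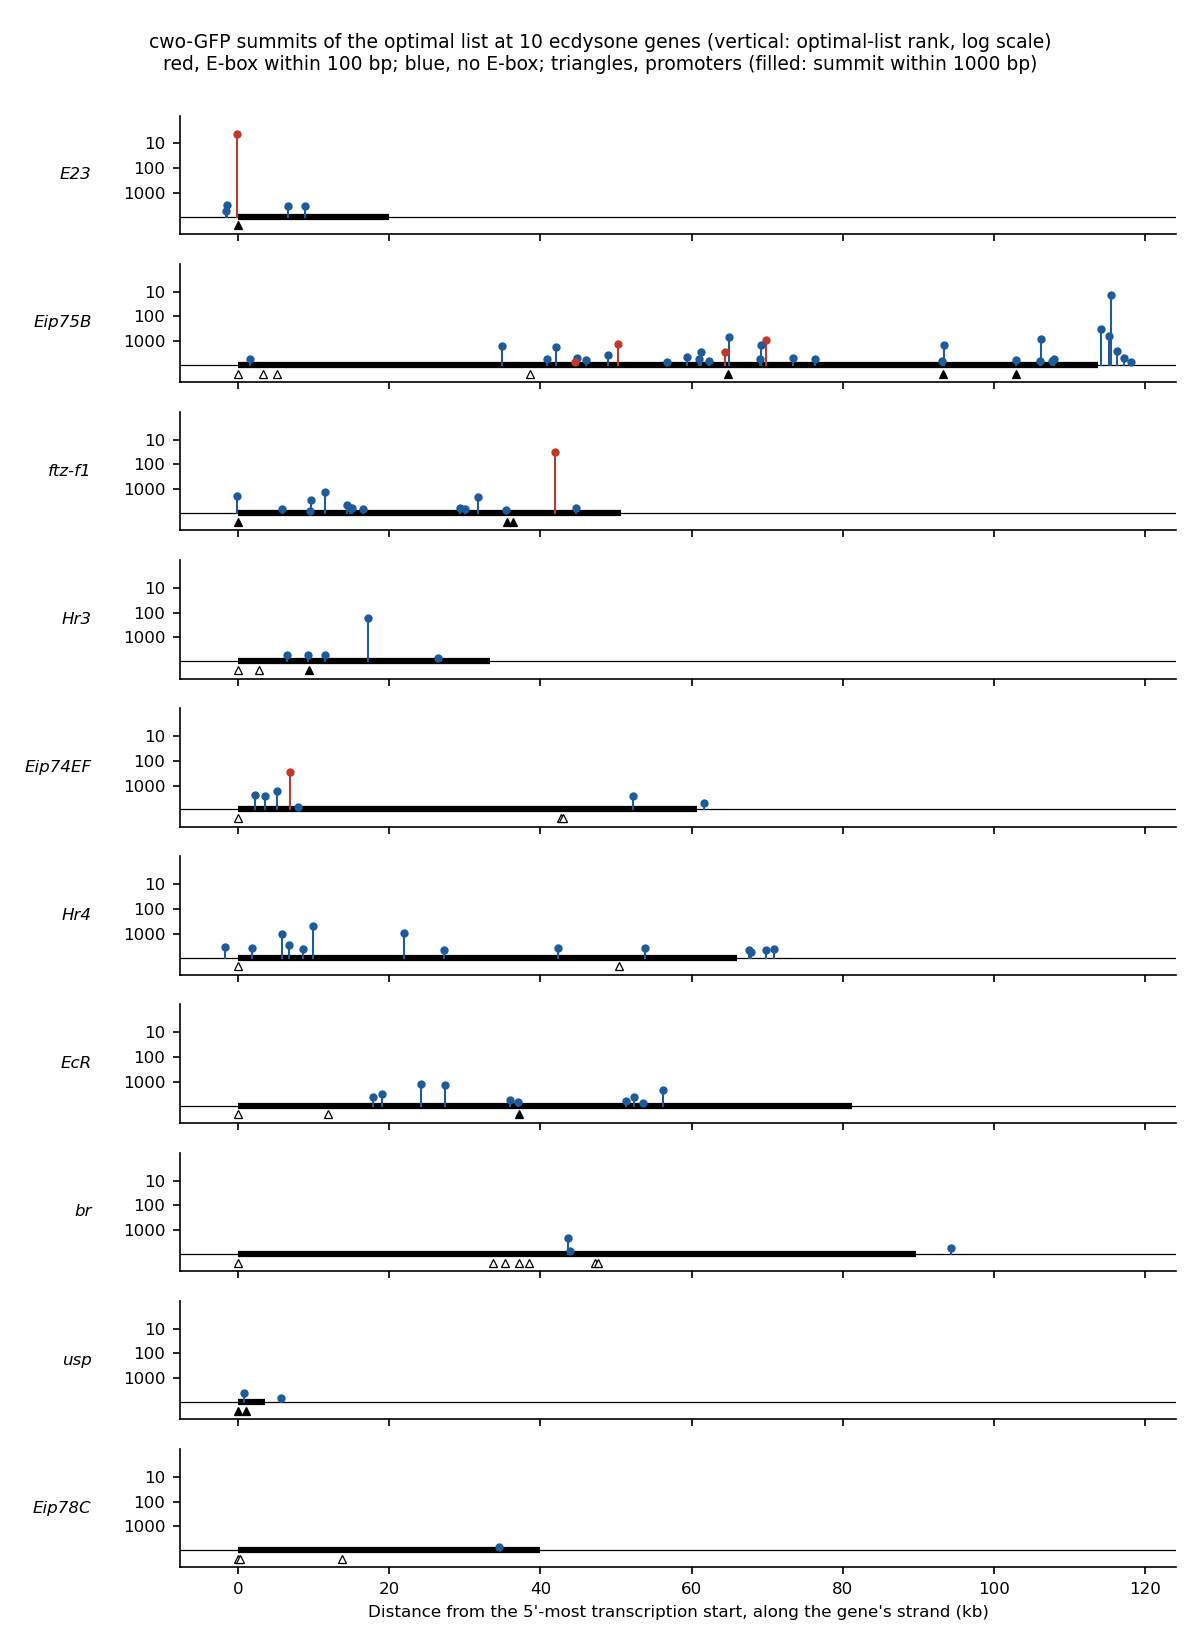
Optimal summits along the 10 genes, by distance from the 5′-most transcription start along the gene's strand (kb), with the gene body as a thick bar. Height is the optimal-list rank (log scale, strongest at the top), red marks an E-box within 100 bp, and triangles are promoters, filled where an optimal summit lies within 1000 bp. The tall summits of ftz-f1, Hr3 and Eip74EF stand inside the gene, that of Eip75B beyond its 3′ end and that of E23 at its promoter.

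Across the 10 genes, 6 had an optimal summit within 1000 bp of a start site, EcR, usp, Eip75B, E23, Hr3 and ftz-f1, against 25.3% of protein-coding genes. A gene with more promoters has more chances of such a summit, and the count by gene was not matched for that. By promoter, 11 of 34 had one, against 26.2% of all promoters of protein-coding genes, and 20 of 34 had a relaxed pooled summit. Some promoters of usp and of ftz-f1 were counted through a shared summit. Of the 96 summits, 11 (11.5%) were at a promoter of the gene in whose territory they lay. Introns held 74, 5′ UTRs 4 and the flanks outside the gene 18. The median distance to the gene's own nearest start was 6176.5 bp, and 58 summits were more than 5000 bp away. For 18 of the 96, another protein-coding gene had the nearest start.

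The 96 summits were spread over the list much as all its regions were, somewhat towards the weaker end. Their median rank was 4308, against 3683.5 over the optimal list, and 63 (65.6%) ranked from 3001 to 7366, ranks that hold 59.3% of the list by construction. All 3 replicates held 65 of them (67.7%), against 71.9% of all optimal regions, 28 were held by 2 replicates and 3 by a single one. Of the 12 ranked in the first 1000, all 3 replicates held every one, as they did 98.2% of all optimal regions at those ranks. Of the 96, 12 were the weaker of a pair within 400 bp, and merging overlapping regions left 84 loci. The replicates had 88, 98 and 88 summits in the 10 territories (mean 91.3 ± 5.8, SD, n = 3).

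The shares of the short sequences near the summits lay on both sides of those of the whole list, mostly within counting error. CACGTG was found within 100 bp of 7 of the 96 summits (7.29%, 95% Wilson interval 3.58 to 14.3), against 13.5% of all 7366. This interval includes the share of the whole list. The 7 were at Eip75B (4), Eip74EF, E23 and ftz-f1. The class C site CACGCG was near 13 (13.5%, 8.09 to 21.8), against 8.0% of all, and 8 of those 13 were at Eip75B. Of the others, Eip74EF had 2 and EcR, Hr4 and ftz-f1 had 1 each. No CACGCG share without Eip75B was computed, here or in the replicates. The interval for CACGCG begins just above the share of the whole list. The E-box variants were closer to the list, with CACGTT at 7.29% against 10.5% and CACGAG at 9.38% against 6.45%. Their intervals include the shares of the list. Any of these 4 sequences was near 33.3% of the 96 and 33.2% of the whole list. In the replicate lists, CACGTG was lower in the territories in all 3 (mean 8.74% ± 0.68, against 13.2% ± 0.18 over their strongest regions, SD, n = 3), as was CACGTT (7.34% ± 1.06, against 10.9% ± 0.33). CACGCG (13.1% ± 1.03, against 8.06% ± 0.27) and CACGAG (9.12% ± 1.14, against 6.60% ± 0.36) were higher in all 3. The intervals cover counting error only and no test was made.

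The half-site AGGTCA, the core bound by receptors of the EcR, Eip75B, Hr3 and ftz-f1 kind, was within 100 bp of 13 of the 96 summits (13.5%, 8.09 to 21.8). Over all optimal summits the share was 4.07% (3.64 to 4.55). In the replicate lists the share was 17.0%, 17.3% and 13.6% in the territories (mean 16.01% ± 2.06, SD, n = 3), against 4.18%, 4.34% and 3.98% over their strongest 7366 regions (mean 4.17% ± 0.18, SD, n = 3). The share was higher in the territories in all 3 replicates. The replicates read the same DNA under many shared summits. For this and the other short sequences, their SD therefore does not measure the spread over summits or genes. Of the 13 summits, 6 were at Eip75B, 2 each at EcR and ftz-f1, and 1 each at Eip74EF, Eip78C and Hr4, and without Eip75B the share was 11.3%. The territories held 221 copies of AGGTCA, 3.35 per 10 kb, against 2.90 per 10 kb over the arms. Of these, 13 (5.88%, 3.47 to 9.80) had an optimal summit within 100 bp, against 0.815% of all copies on the arms. The territories also held 1.46 summits per 10 kb, against 0.550 over the arms, so any sequence there is likelier to lie near a summit. The part of this density in the difference was not tested. The perfect inverted repeat of AGGTCA with 1 base between, the type the EcR and usp heterodimer is known for, was absent from the 10 territories and from the windows of all 7366 summits. An exact match this long is rare in sequence of this total length, and imperfect copies were not searched. Its absence therefore says little about sites for the receptor. Windows at the 96 summits had a median GC content of 43.0%, against 38.8% over the list, and its part in these shares was not tested.

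**Figure D5:**
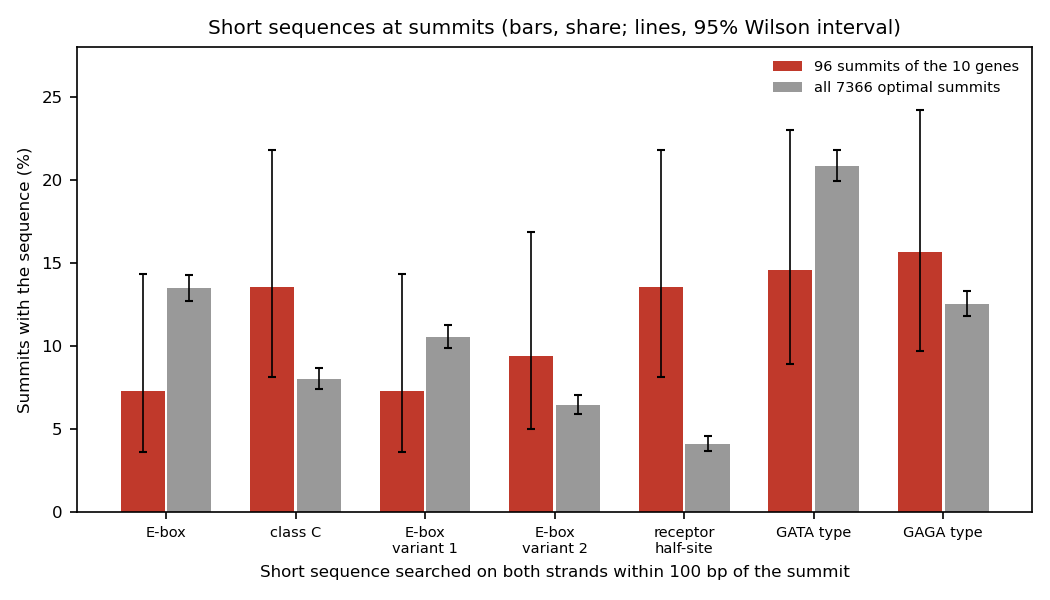
Share (%) of summits with each short sequence within 100 bp, for the 96 summits of the 10 genes (red) and all 7366 optimal summits (grey), with 95% Wilson intervals as lines. E-box is CACGTG, class C is CACGCG, the variants are CACGTT and CACGAG, the receptor half-site is AGGTCA, the GATA type is TGATAA and the GAGA type is GAGAGA. The red interval lies wholly above the grey one only for the half-site.

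Summits with an E-box were more frequent at the top of the list. Of the 12 summits in the first 1000 ranks, 4 held CACGTG, against 26.4% of the optimal list at those ranks. From 1001 to 3000 it was 2 of 21, against 15.55%, and from 3001 to 7366 it was 1 of 63, against 9.53%. Seen from the genome, the territories held 65 copies of CACGTG, and 7 of them (10.8%, 5.32 to 20.6) had an optimal summit within 100 bp, against 6.29% of the 16428 copies on the arms. The interval includes the share of the arms, and the denser summits of the territories bear on this share too. Eip75B held 21 of the 65 copies, 4 with an optimal summit and 8 with a relaxed pooled one. The 6 copies at br had none, relaxed or optimal. The sequence TGATAA was near 14.6% of the 96 and 20.8% of all, and GAGAGA near 15.6% and 12.5%. In the replicates TGATAA was lower in all 3 (mean 14.6% ± 2.29, against 20.6% ± 0.58, SD, n = 3) and GAGAGA higher in all 3 (17.1% ± 2.31, against 12.4% ± 0.06).

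The other genes of the pathway were read from 4 lists. Of 14 genes for synthesis, transport and inactivation of the hormone, 7 had an optimal summit in their territory and 2 had one at a promoter. The strongest was near spo, which encodes a cytochrome P450 of the synthesis pathway, at rank 334, with 347, 388 and 306 in the replicates, though the summit was closest to Alp10. Oatp74D, the importer through which the hormone enters cells, followed at 2416, then shd at 2778, which converts ecdysone to its active form, and sad at 3168, the shd and sad summits being closest to CG9628 and CG6959. No summit was present in the relaxed pooled list for spok, Cyp6t3 and ouib. The 7 genes with an optimal summit did not all have one of their own, as neighbouring genes shared that of rank 4092. Of 7 cofactors and chaperones of the receptor, 5 had an optimal summit and 3 had one at a promoter. The strongest were bon at 106, Hsp83 at 538, Smr at 826 and tai at 2153. The Smr summit lay in no region of the replicate 1 list, and that of tai was closest to CG9586. The genes bon and Smr encode a corepressor each, tai encodes a coactivator of EcR, and Hsp83 the fly HSP90.

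Of 14 other nuclear receptor genes, 9 had an optimal summit and 7 had one at a promoter, and the strongest were Hr78 at 1180, Hr96 at 1307, Hnf4 at 1458 and ERR at 1544, that of Hr96 being closest to EMC6. The 5 without one were svp, tll, kni, knrl and eg, and the territories of tll and eg had no summit even in the relaxed pooled list. Of 14 other ecdysone response genes, 9 had an optimal summit and 3 had one at a promoter. ImpL2, which encodes a secreted insulin-binding protein, was the strongest at rank 26, with 43, 23 and 22 in the replicates, closest to Cpr64Ad. MsrA, listed as Eip71CD, had its strongest at 110, closest to CG7841. Kr-h1, a zinc finger gene best known as a juvenile hormone target, was at 135 with 126, 120 and 160 in the replicates, closest to CG45075, and Eip63E at 1338. By share of genes with a summit, the 4 lists stood at 50%, 71.4%, 64.3% and 64.3%, beside the 54.3% of protein-coding genes given above. Promoter summits, at 2 of 14, 3 of 7, 7 of 14 and 3 of 14 genes, stand beside 25.3% of protein-coding genes.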

How the data were processed

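ChIP-seq of cwo-GFP in whole embryos was deposited as narrowPeak lists. The authors called regions per replicate against a control and on the pooled reads, 30000 regions per list, and derived an optimal IDR list of 7366, per the labels and accompanying text. The signal column is a score of the authors' peak caller, deposited with no stated scale. The sources used here name no caller, aligner or version and give no IDR threshold, and read depth is unknown. Signal therefore ranks regions within a list only, and Wilson intervals cover counting error over regions. Lists on dm3 were not used, because the annotation is on dm6.

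Positions are 1-based on dm6, with genes from Ensembl release 115. Start sites of a gene within 100 bp were merged into 1 promoter. A replicate held a summit that lay inside 1 of its 7366 strongest regions, and the rank given is that of its best region there, so close summits can share it. Scripts used Python 3.11.15, numpy 2.4.6, pandas 2.3.3, scipy 1.17.1 and matplotlib 3.10.9, and were tested on simulated data. With 1 group there was no test. The text names all 10 genes with their strongest summit and promoter summits, the 5 genes closest to Eip75B in count, and up to 4 genes per list with any lacking a pooled summit. Of 49 list genes, 46 matched by symbol and 3 by an older one (phm, Eip71CD and Eip55E). The genes, lists and short sequences were chosen with earlier results of these data known. Other flanks, distances, windows, lists and replicates were tried.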

Additional observations from a re-analysis of the deposited data

How the results depend on the processing

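Of the alternative values computed, 76 stayed within the limits set (1.5 times for a count, 1 SD of the replicates for a share or rank) and 31 moved. The median best rank, 391.5, became 980 with the gene body alone, 285.5 with 10000 bp either side, 225 with summits closest to the gene and 311 in replicate 3 alone. Leaving out a replicate gave 290 to 391.5. These medians cover only genes that kept a summit, 8 for 225 and 9 for 311 and 290, so the weakest genes dropped out. Over all 10 genes and all its regions, replicate 3 had a median of 435. Protein-coding genes with a summit numbered 2366 with the gene body alone and 11377 in the pooled list. The CACGTG share, 7.29%, was 12.04% with 10000 bp either side, 15.38% in the strongest 3683 regions, 6.574% in the pooled list, 11.46% within 200 bp, 8.974% for summits closest to the gene, 9.184% in replicate 2 alone, 9.091% in replicate 3 alone and 7.895% to 9.091% leaving out a replicate. The AGGTCA share, 13.5%, was 17.95% in the strongest 3683, 9.689% in the pooled list, 8.333% within 50 bp, 21.88% within 200 bp and 11.29% without Eip75B, and was above that of its whole list in each. The strongest 3683 regions held 39 summits, 14 of them at Eip75B, and 3 genes with a promoter summit. The pooled list held 289, with 81 at Eip75B. Eip75B had 21 to 27 summits leaving out a replicate. Of its promoters, 5 had a summit within 2000 bp or in the pooled list. Counting any region of a replicate, 95.83% of the 96 were held by all 3. The cause of these changes was not tested.

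Some calls rested on single replicates or rules. Eip78C lost its only summit without replicate 1 or 2, in replicate 3 alone and among the strongest 3683 regions, where usp lost its summits too. The EcR promoter summit was lost without replicate 2 or 3. In replicate 2 alone, Eip78C gained a promoter summit. Counting only summits closest to the gene dropped Eip78C and br. Leaving out a replicate only keeps the regions both others held, since the optimal list was made from all 3. No paired analysis was possible because the 3 replicates form a single group. Values by replicate alone, by closest gene and those for AGGTCA were added after seeing the data.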
